A study of Homo sapiens with 6 samples.

Results

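The kinetochore is the protein machine that assembles on the centromere of each chromosome and holds it to the spindle in mitosis, and the spindle checkpoint is the set of kinases and inhibitors that delays anaphase until all kinetochores are attached. A fixed list of 42 genes for these 2 systems was followed in RNA-seq of a cervical cancer cell line, out of 60664 genes in the deposited table. The list was set by gene symbol, with no measured value in the rule, and all 42 symbols had a row. It was chosen with earlier results of these data known, so its counts beside all genes are descriptions. Of these genes, 41 passed the filter on low counts and were among the 15130 genes tested. The remaining one, MAD1L1, which carries the checkpoint protein MAD2 to unattached kinetochores, had between 5 and 9 counts per library and was not tested.

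The control group was 3 libraries labelled SiHa PR. SiHa is a long-established line from a human squamous carcinoma of the cervix, and PR is the parental population that was later selected in animals for lymph node metastasis. The other group was 3 libraries labelled SiHa PR P4HA3, the same cells after lentiviral delivery of the cDNA of P4HA3, a subunit of the collagen prolyl 4-hydroxylase. The transgene was driven from a pCDH vector, no clone was named, and the labels name no vector for the controls. No label says that the libraries came from separate cultures, so p-values measure the spread between these libraries, which may be technical. In bulk RNA, more cells in mitosis and more RNA of a gene per cell cannot be told apart.

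Libraries held between 21773488 and 24939948 counts. P4HA3 itself was at 86, 62 and 93 counts in the controls and at 45042, 44775 and 49097 counts in the overexpressing libraries. A deposited protocol describes uterine muscle tissue. Of 7 smooth muscle markers, CNN1 was at 0 or 1 counts, DES and MYH11 were at no more than 9 and ACTG2 at no more than 44 counts in any library, while ACTA2 (161 to 204 counts), TAGLN (195 to 427) and SMTN (1948 to 2541) were present. TAGLN was higher with overexpression (log2 fold change 0.96, edgeR adjusted p = 0.000436), and the list summed to 103 to 114 CPM in the controls and 111 to 129 CPM with overexpression. SMTN was at 0.04 (edgeR adjusted p = 0.717). With the GC content and length offset described below, TAGLN was at 1.08 (adjusted p = 1.1e-05) and SMTN at 0.28 (adjusted p = 0.00251), both called. Of 8 epithelial markers, KRT8 lay between 37019 and 46157 counts, whereas the squamous markers KRT5 (3 or 4 counts) and TP63 (3 to 13 counts) were close to absent. KRT19 was also low (14 to 31 counts, log2 fold change 0.22, edgeR adjusted p = 0.583). EPCAM lay between 116 and 150 counts (-0.07, adjusted p = 0.658), and neither gene was called. CDH1 (-0.77, edgeR adjusted p = 0.00114), KRT18 (-0.40, adjusted p = 0.0108) and CDKN2A (-0.27, adjusted p = 0.0369) were lower with overexpression, and the list summed to 2949 to 3333 CPM in the controls and 2636 to 2999.9 CPM with overexpression. With the same offset CDH1 was at -0.79 (edgeR adjusted p = 8.9e-05) and KRT18 at -0.20 (adjusted p = 0.00874). CDKN2A was then at -0.07 (adjusted p = 0.244) and was not called. Of 4 blood and endothelial markers, PTPRC, VWF and CDH5 had at most 2 counts in any library, and PECAM1 fell from 62 to 73 counts in the controls to 30 to 37 counts with overexpression (-1.03, edgeR adjusted p = 0.00494). The part of these marker differences in the results was not tested.

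Kinetochores are built in layers. Nucleosomes with the histone variant CENP-A mark the centromere, a constitutive network of CENP proteins sits on them throughout the cell cycle, and in mitosis this network recruits the outer KMN network, which binds microtubules. Many of these genes are transcribed mainly in late S and G2 phase, and their promoters often hold the cell cycle homology region (CHR), bound by the DREAM and MuvB complexes, and the CCAAT box, bound by NF-Y.

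Kinetochore and checkpoint genes were mostly higher with P4HA3 overexpression, by small amounts. Of 41 tested genes, 39 had a positive log2 fold change (SiHa PR P4HA3 over SiHa PR), and the median was 0.31, a ratio of 1.24, beside a median of 0.0055 over all genes tested. In the edgeR quasi-likelihood test, 23 genes were higher at a Benjamini-Hochberg adjusted p under 0.05 and 0 were lower, where 9.36% of all genes tested were higher and 11.4% lower. At an unadjusted p under 0.05, 30 were higher and 0 lower, where 19.3% and 19.4% of all genes tested were. In 5 genes the ratio was at least 1.5 (CENPE, TTK, CENPF, KNL1 and CENPK), and in 1 of them, CENPE, at least 2. Without SiHa PR P4HA3 replicate 2 only 1 of the 5, CENPE, still had a ratio of at least 1.5. In 29 genes all 3 SiHa PR P4HA3 libraries lay above all 3 SiHa PR libraries, and in 0 genes below, where 19.7% and 20.4% of all genes tested did so.

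Transcripts of these genes are poor in G and C, and the libraries differed in how their counts followed GC content, so the log2 fold changes of the list are also given with each library's smooth trend on GC content and transcript length entered as an offset (called the corrected value). The correction removes any part of the difference that follows these properties, whatever its source. With it, 37 genes had a positive and 4 a negative corrected log2 fold change, the median was 0.21 (0.0186 over all genes tested), 19 genes were called higher and 0 lower (0 lower also at an unadjusted p under 0.05), and the corresponding shares of all genes were 10.6% and 7.94%. All 3 corrected overexpressing libraries lay above the corrected controls in 23 genes, where 21.2% of all genes tested did so. The 2 fits shared 16 called genes, 7 were called only in the uncorrected and 3 only in the corrected fit. The share of all genes called in both fits is not given here, so the 16 cannot be read as particular to the list. Across all genes tested, 45% of calls were higher in the uncorrected fit and 57.1% in the corrected one.

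**Figure D1:**
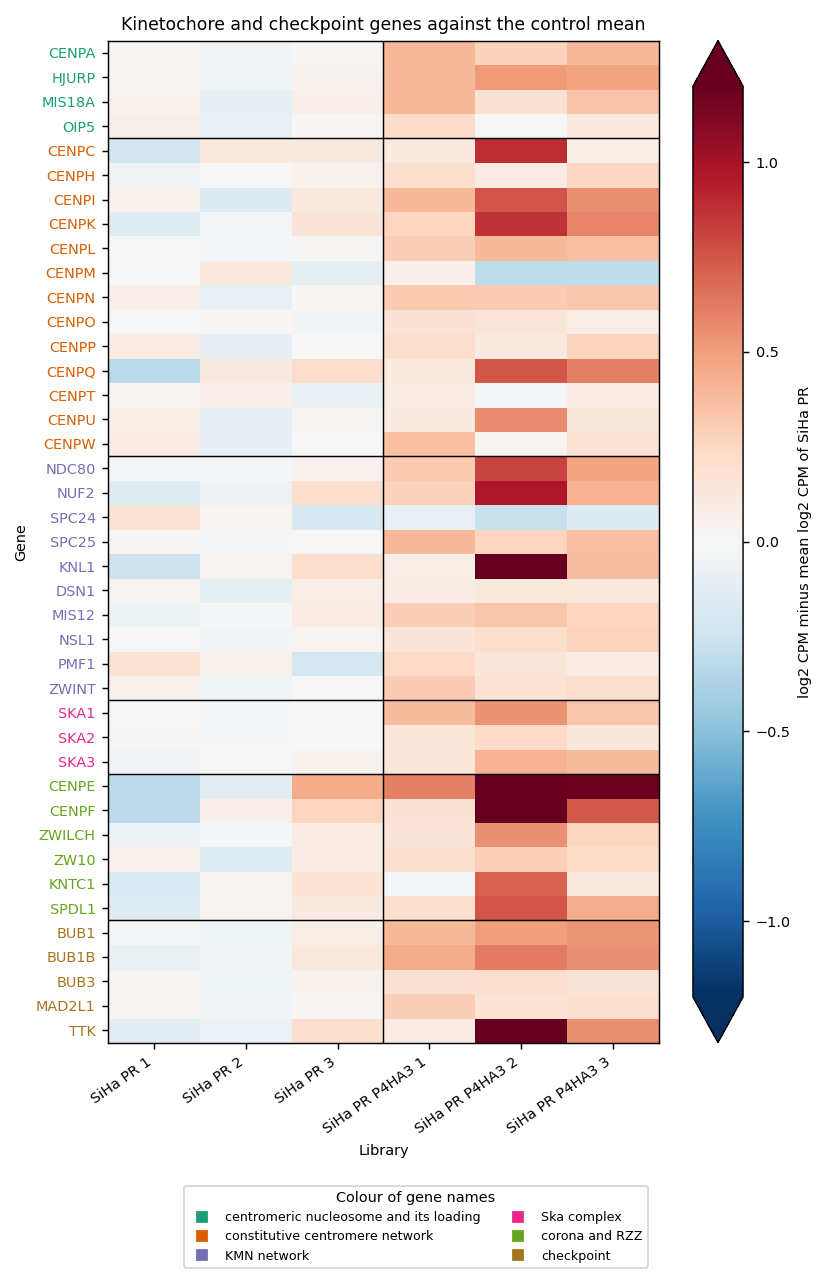
Each cell is the log2 CPM of a gene in a library minus the mean log2 CPM of the 3 SiHa PR libraries (rows, 41 tested genes ordered by role; columns, the 6 libraries). The right-hand block is red for most genes, blue only for CENPM and SPC24 in 2 or more of its columns, and deepest in SiHa PR P4HA3 replicate 2.

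Levels are given as TMM-normalized CPM (counts scaled to the effective library size) for replicates 1, 2 and 3 in that order. The genes of the centromeric nucleosome and its loading had 3 of 4 called in both fits and a median log2 fold change of 0.33 (corrected 0.31). CENPA, the histone H3 variant that defines the centromere, was at 38.4, 36.8 and 38.6 CPM in SiHa PR and 50.2, 45.9 and 49.6 CPM in SiHa PR P4HA3. The groups did not overlap, and the log2 fold change was 0.36 (SE 0.065, edgeR adjusted p = 0.00701; corrected 0.36, adjusted p = 0.000536). HJURP, the chaperone that deposits CENP-A, was at 53.8, 51.6 and 55 CPM in the controls and 69.9, 76 and 74.3 CPM with overexpression. Again every overexpressing library was above every control, with a log2 fold change of 0.46 (SE 0.061, edgeR adjusted p = 0.00177) that was 0.46 after correction (adjusted p = 0.000118). MIS18A, part of the complex that primes centromeres for loading, rose from 31.5, 28.7 and 31.9 CPM in the controls to 40.5, 34.9 and 39 CPM with overexpression, by 0.31 on the log2 scale (edgeR adjusted p = 0.0239; corrected 0.25, adjusted p = 0.0169). Its partner OIP5 (MIS18 beta) overlapped between groups, at 29.9, 26.8 and 28.8 CPM in the controls and 33.1, 28.5 and 30.8 CPM with overexpression, and was not called (log2 fold change 0.11, edgeR adjusted p = 0.323; corrected 0.10, adjusted p = 0.277). The antisense gene OIP5-AS1 covers 63.2% of the exon bases of OIP5 and held 1813 to 2456 counts, so the reads of OIP5 are uncertain if the counting ignored strand, which the sources do not say.

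The constitutive centromere network gave 4 called genes of 13 in the uncorrected fit and 6 in the corrected one, with medians of 0.28 and 0.20. CENPN, which reads the CENP-A nucleosome directly, was at 139, 125 and 135 CPM in SiHa PR and 165, 164 and 166 CPM in SiHa PR P4HA3. Its partner CENPL was at 26.5, 25.9 and 26.6 CPM in the controls and 32.3, 34.4 and 33.7 CPM with overexpression. Both pairs of groups were apart, with log2 fold changes of 0.31 (SE 0.056, edgeR adjusted p = 0.00676) for CENPN and 0.35 (SE 0.067, adjusted p = 0.00877) for CENPL, and corrected values of 0.20 (adjusted p = 0.0138) and 0.27 (adjusted p = 0.00410).

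CENPI and CENPK, of the CENP-H/I/K/M module, were called in both fits, and the other 2 genes of the module in neither. CENPI was at 25.5, 22.2 and 26.9 CPM in the controls and 32.5, 41.8 and 36.7 CPM with overexpression, a log2 fold change of 0.57 (SE 0.10, edgeR adjusted p = 0.00704; corrected 0.37, adjusted p = 0.00207). CENPK, at 14.3, 15.6 and 17.7 CPM in the controls and 18.9, 28.9 and 23.7 CPM with overexpression, had the largest change of the network, 0.59 (SE 0.14, edgeR adjusted p = 0.0201; corrected 0.33, adjusted p = 0.0153), and the lowest GC content of all 41 genes, 32.8%. Both genes had no overlap between groups and were highest in SiHa PR P4HA3 replicate 2. CENPH reached 0.18 and missed the threshold (edgeR adjusted p = 0.121; corrected 0.09, adjusted p = 0.378). CENPM was at 49.1, 53.6 and 45.7 CPM in SiHa PR and 51.4, 40.02 and 39.97 CPM in SiHa PR P4HA3, with overlapping groups, and its log2 fold change of -0.17 (SE 0.10, edgeR adjusted p = 0.237) changed sign to 0.04 (adjusted p = 0.674) with the correction. CENPM has the highest GC content of the tested genes, 59.7%.

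A pair of GC-rich genes of the network was called only after correction. CENPT, a DNA-bound anchor for the NDC80 complex, was at 93.1, 95.7 and 87 CPM in the controls and 98, 90.6 and 97.5 CPM with overexpression, which overlap, with a log2 fold change of 0.05 (edgeR adjusted p = 0.538) and a corrected value of 0.24 (adjusted p = 0.00170). CENPO, of the CENP-O/P/Q/U module, was at 75, 75.9 and 73.1 CPM in the controls and 84.2, 82.7 and 79 CPM with overexpression, which do not overlap, with 0.13 (edgeR adjusted p = 0.103) and 0.21 (adjusted p = 0.00725) in the same order. Exons of ADCY3 on the opposite strand cover 27.0% of the exon bases of CENPO, and ADCY3 was lower with overexpression (log2 fold change -0.46, edgeR adjusted p = 0.00107). For CENPT, opposite-strand exons of TSNAXIP1, THAP11 and NUTF2 cover 10.5%, 6.71% and 2.93% of the exon bases. THAP11 held 3017 to 3838 and NUTF2 7957 to 9970 counts, and none of these neighbours was called. The other genes of the network that were not called in either fit (CENPC, CENPP, CENPQ, CENPU and CENPW) had log2 fold changes between 0.19 for CENPW and 0.50 for CENPQ, and corrected values between 0.05 and 0.26 for the same genes. Exons of IPPK cover 39.9% of those of CENPP, and exons of PRIMPOL 14.9% of those of CENPU, in both cases from the opposite strand.

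The KMN network, the microtubule-binding outer kinetochore made of KNL1 and the MIS12 and NDC80 complexes, had 6 of 10 genes called in the uncorrected fit and 4 in the corrected one, with medians of 0.26 and 0.20. Of the 4 subunits of the NDC80 complex, the rod that grips the microtubule, 3 were called without correction and 2 with it. NDC80 was at 33.5, 33.4 and 35.3 CPM in SiHa PR and 42.5, 59.8 and 47.4 CPM in SiHa PR P4HA3. NUF2, its dimer partner, was at 10.3, 10.8 and 13.1 CPM in the controls and 13.8, 22.3 and 15.1 CPM with overexpression. Both were highest in SiHa PR P4HA3 replicate 2 and had no overlap between groups. The log2 fold change was 0.55 for NDC80 (SE 0.11, edgeR adjusted p = 0.0105; corrected 0.39, adjusted p = 0.00566) and 0.58 for NUF2 (SE 0.17, edgeR adjusted p = 0.0396; corrected 0.41, adjusted p = 0.04999, just inside the threshold).

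At the other end of the same rod, SPC25 was at 23.9, 23.3 and 23.8 CPM in the controls and 31, 28.4 and 30.5 CPM with overexpression, a log2 fold change of 0.34 (SE 0.072, edgeR adjusted p = 0.0119) that fell just outside the threshold after correction (0.21, adjusted p = 0.0516). SPC24 was at 45.9, 41.6 and 35.9 CPM in the controls and 38.5, 34.1 and 36.8 CPM with overexpression, with overlapping groups, a log2 fold change of -0.17 (edgeR adjusted p = 0.193) and a corrected value of -0.08 (adjusted p = 0.504). SPC24 was the only tested gene below 0 in both fits.

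In the MIS12 complex, which links the inner and outer layers, 2 of 4 genes were called without correction and 1 with it. MIS12 was at 21.6, 22.2 and 23.9 CPM in SiHa PR and 27.6, 28.4 and 27 CPM in SiHa PR P4HA3 (log2 fold change 0.29, edgeR adjusted p = 0.0230; corrected 0.15, adjusted p = 0.101). NSL1 was at 30.8, 30.2 and 31.5 CPM in the controls and 34.3, 35.7 and 37 CPM with overexpression, a difference of 0.21 (edgeR adjusted p = 0.0484) that became -0.02 (adjusted p = 0.912) after correction. Neither gene overlapped between groups before correction, and NSL1 has the longest transcript of the list, 13115 bases. PMF1 was at 15.9, 14.7 and 12.2 CPM in the controls and 16.8, 15.7 and 15.1 CPM with overexpression, which overlap, and was called only after correction (0.32, edgeR adjusted p = 0.0243, against 0.15, adjusted p = 0.315). DSN1 reached 0.11 (corrected 0.02) and was not called in either fit.

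KNL1, the scaffold that docks the BUB kinases, had the largest log2 fold change of the KMN network without being called. It was at 10.1, 12.3 and 13.9 CPM in the controls and 12.7, 28.6 and 15.5 CPM with overexpression, where only replicate 2 stood well above the controls, and the log2 fold change was 0.64 (SE 0.26, edgeR adjusted p = 0.0949; corrected 0.34, adjusted p = 0.169). Without that library it was 0.22 (adjusted p = 0.259), and 0.08 with the correction as well. ZWINT, which binds KNL1 and helps to bring in the ROD-ZW10-ZWILCH complex, was at 146, 135 and 140 CPM in the controls and 173, 158 and 163 CPM with overexpression, apart in all libraries, and rose by 0.23 on the log2 scale (SE 0.058, edgeR adjusted p = 0.0231; corrected 0.19, adjusted p = 0.0125).

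The Ska complex holds the NDC80 complex on the end of a shrinking microtubule, and 2 of its 3 genes were called without and 1 with correction (medians 0.32 and 0.18). SKA1, its microtubule-binding subunit, was at 18.3, 18 and 18.3 CPM in SiHa PR and 23.7, 26.4 and 22.9 CPM in SiHa PR P4HA3. This gene was the one of the 3 called in both fits, at 0.42 (SE 0.081, edgeR adjusted p = 0.00866) and 0.32 corrected (adjusted p = 0.00630). SKA3 was at 13.9, 14.4 and 14.8 CPM in the controls and 15.9, 19.3 and 18.7 CPM with overexpression, called only without correction (0.32, edgeR adjusted p = 0.0384; corrected 0.18, adjusted p = 0.100). SKA2 was at 58.7, 57.5 and 58.3 CPM in the controls and 64.4, 68.5 and 64.1 CPM with overexpression, and missed the threshold in both fits with opposite signs (0.17, edgeR adjusted p = 0.0552; corrected -0.04, adjusted p = 0.671). None of the 3 genes overlapped between groups before correction.

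**Figure D2:**
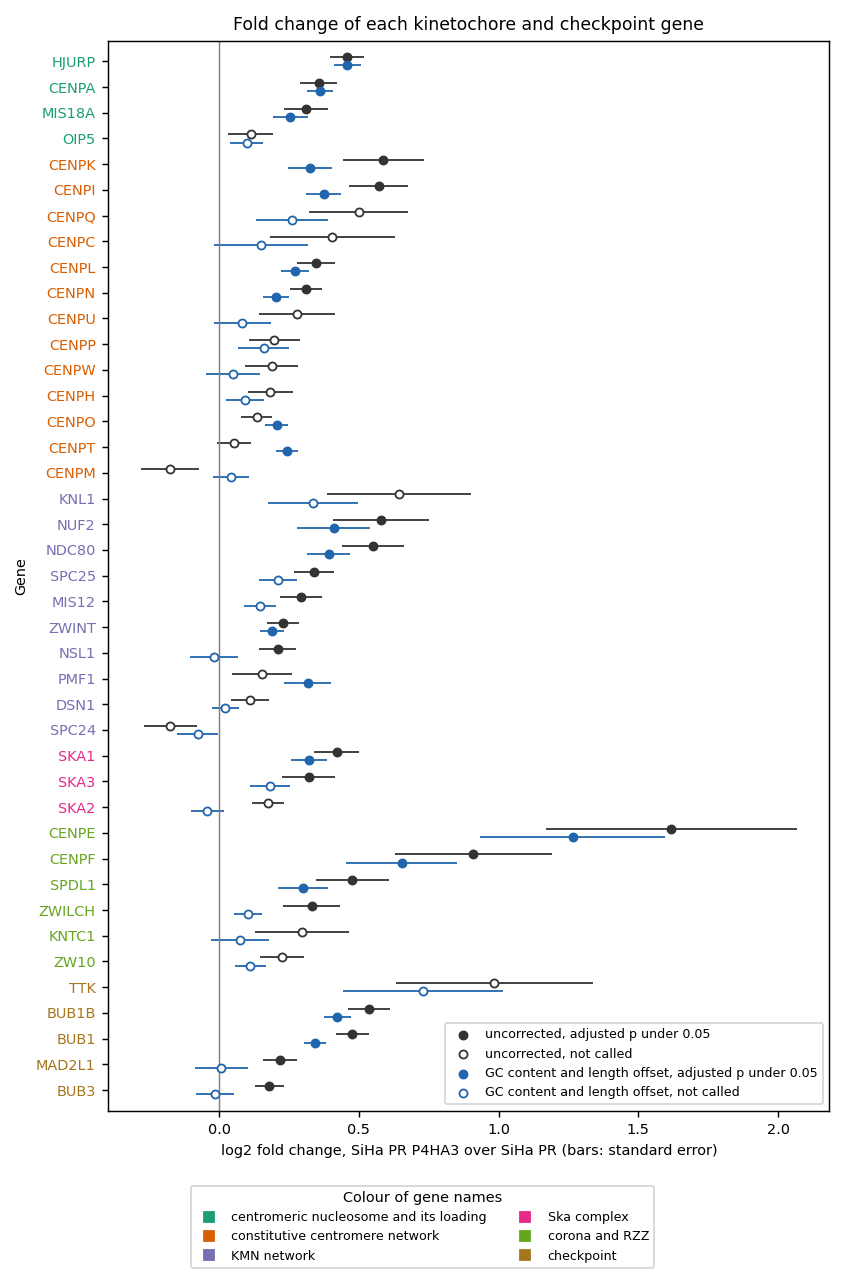
Points are the log2 fold change of SiHa PR P4HA3 over SiHa PR for each of the 41 tested genes, black for the uncorrected fit and blue for the fit with the GC content and length offset, with bars of 1 standard error and filled points at an adjusted p under 0.05. Blue points lie left of black ones for most genes, and CENPE is farthest to the right in both fits, at 1.62 and 1.26.

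The fibrous corona and the ROD-ZW10-ZWILCH complex form the outermost layer, which captures microtubules and brings dynein and MAD1 to the kinetochore. Here 4 of 6 genes were called without and 3 with correction, with medians of 0.40 and 0.21. CENPE, the kinesin that carries chromosomes to the spindle equator, was at 24, 24 and 42 counts in SiHa PR and 45, 159 and 74 counts in SiHa PR P4HA3, or 0.986, 1.13 and 1.72 CPM in the controls and 1.93, 7.07 and 2.92 CPM with overexpression. The overexpressing libraries were all above the controls, but replicate 1 only just so. The log2 fold change of 1.62 (SE 0.45, edgeR adjusted p = 0.0313; corrected 1.26, adjusted p = 0.0223) was 0.92 (adjusted p = 0.0226) without SiHa PR P4HA3 replicate 2. CENPF, a large coiled-coil protein of the corona, was at 18.6, 24.2 and 27.6 CPM in the controls and 26.1, 67.6 and 38.6 CPM with overexpression. The highest control lay above the lowest overexpressing library, and the log2 fold change of 0.91 (SE 0.28, edgeR adjusted p = 0.0449; corrected 0.65, adjusted p = 0.0416) was 0.47 (adjusted p = 0.0420) without the same library.

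SPDL1 (Spindly), the dynein adaptor, was at 24.1, 27.4 and 28.9 CPM in the controls and 30.5, 45.2 and 36.1 CPM with overexpression, and was called in both fits (0.48, SE 0.13, edgeR adjusted p = 0.0299; corrected 0.30, adjusted p = 0.0373). ZWILCH was at 27.9, 29 and 31.3 CPM in the controls and 32.8, 43 and 35.2 CPM with overexpression and was called only without correction (0.33, edgeR adjusted p = 0.0440; corrected 0.10, adjusted p = 0.185). Both were highest in SiHa PR P4HA3 replicate 2 and without it were at 0.32 (adjusted p = 0.0376) and 0.21 (adjusted p = 0.103). ZW10 was at 37, 32.2 and 38 CPM in the controls and 40.6, 43.4 and 41.4 CPM with overexpression, apart but not called (0.23, edgeR adjusted p = 0.0618; corrected 0.11, adjusted p = 0.174). KNTC1 (ROD), the third subunit of the complex, overlapped between groups and had a log2 fold change of 0.30 (edgeR adjusted p = 0.218; corrected 0.08, adjusted p = 0.657), which was 0.04 (adjusted p = 0.810) without SiHa PR P4HA3 replicate 2.

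Of the 5 tested checkpoint genes, 4 were called without correction and 2, BUB1 and BUB1B, with it, and the medians were 0.48 and 0.34. BUB1, the kinase that phosphorylates histone H2A at centromeres and recruits the other checkpoint proteins, was at 94.2, 91.9 and 99.8 CPM in SiHa PR and 126, 135 and 137 CPM in SiHa PR P4HA3. BUB1B (BUBR1), a subunit of the mitotic checkpoint complex that inhibits the anaphase-promoting complex, was at 49.1, 51.2 and 57.1 CPM in the controls and 71.3, 80.3 and 76.6 CPM with overexpression. For both genes the gap between the groups was wider than the range within either group. The log2 fold change was 0.48 for BUB1 (SE 0.060, edgeR adjusted p = 0.00135; corrected 0.34, adjusted p = 0.000271) and 0.54 for BUB1B (SE 0.074, edgeR adjusted p = 0.00210; corrected 0.42, adjusted p = 0.000233), that is 1.39-fold and 1.45-fold before correction.

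BUB3 and MAD2L1, further subunits of that inhibitor, gave smaller differences that were close to 0 after correction. BUB3, which targets BUB1 and BUBR1 to KNL1, was at 211, 202 and 216 CPM in the controls and 238, 241 and 233 CPM with overexpression (0.18, edgeR adjusted p = 0.0363; corrected -0.02, adjusted p = 0.899). MAD2L1 (MAD2), the protein that sequesters CDC20, was at 56.9, 55 and 57.3 CPM in the controls and 69.4, 63.1 and 64.5 CPM with overexpression (0.22, edgeR adjusted p = 0.0318; corrected 0.01, adjusted p = 0.960). Both were called, with groups apart, only without correction. TTK (MPS1), the kinase that starts checkpoint signalling, was at 5.87, 6.10 and 7.31 CPM in the controls and 6.87, 22.1 and 9.46 CPM with overexpression, so that its high mean came mostly from 1 library. The log2 fold change was 0.98 (SE 0.35, edgeR adjusted p = 0.0697; corrected 0.73, adjusted p = 0.0992), and 0.35 (adjusted p = 0.121) without SiHa PR P4HA3 replicate 2.

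MAD1L1 was at 6, 7 and 6 counts in the controls and 6, 9 and 5 counts with overexpression. An unnamed gene on the same strand (ENSG00000286192), with 0 counts in every library, covers 43.2% of its exon bases in the annotation used here. Reads that lie in 2 genes may not be counted for either, and whether this applied to MAD1L1 was not tested.

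**Figure D3:**
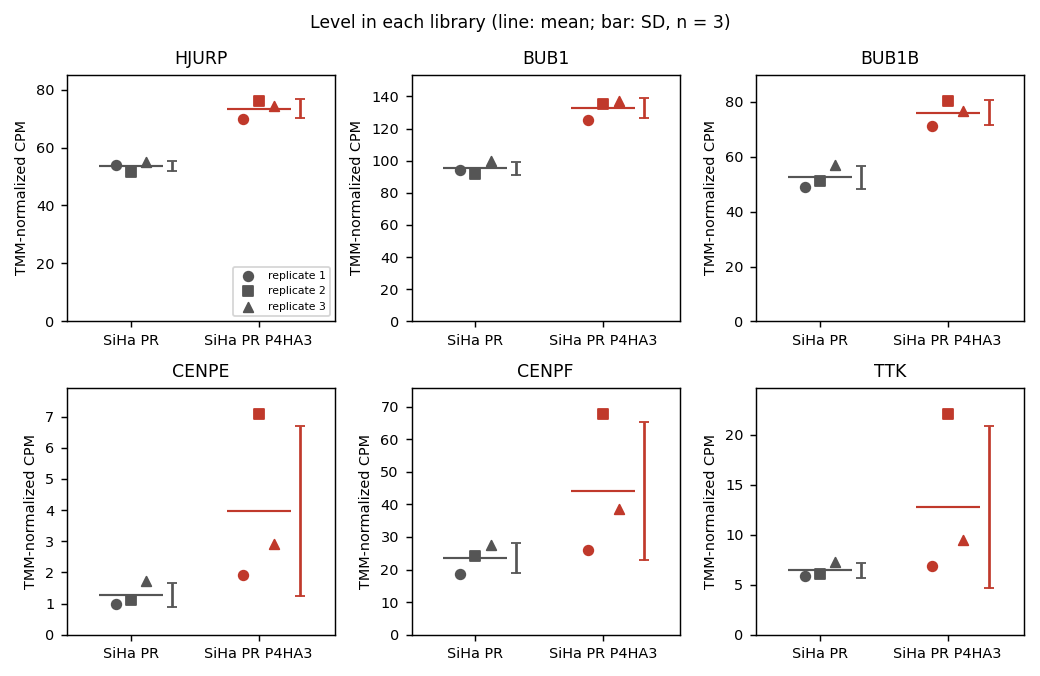
Levels of HJURP, BUB1 and BUB1B (top) and CENPE, CENPF and TTK (bottom) in TMM-normalized CPM on axes that start at 0, with 1 symbol per library, a line at the mean and a bar of 1 SD (n = 3). The top genes have separate, tight groups, and in the bottom genes SiHa PR P4HA3 replicate 2 (square) is far above the other libraries.

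The levels per transcript length spanned a wide range in the controls, expressed as RPKM (CPM per kilobase of the canonical transcript). ZWINT was the most abundant at 75.6 ± 2.82 RPKM (SD, n = 3), followed by CENPM at 52.7 ± 4.23 RPKM. CENPT (35.6 ± 1.72 RPKM), CENPW (35.5 ± 2.51 RPKM) and CENPN (33.9 ± 1.81 RPKM) came next and lay within each other's spread. Tested genes at the low end were KNL1 at 1.31 ± 0.205, CENPC at 0.453 ± 0.0587 and CENPE at 0.149 ± 0.0454 RPKM. Within the NDC80 complex, SPC24 (18 ± 2.19 RPKM) and SPC25 (17.6 ± 0.257 RPKM) did not differ beyond their spread, NDC80 was at 16 ± 0.517 RPKM, and NUF2 was lower at 5.81 ± 0.768 RPKM. Over the 41 genes, Spearman's rho between control RPKM and transcript length was -0.52, a description of points that share the length in both measures.

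Differences followed GC content within the list much as they did elsewhere. The median GC content of the 41 transcripts was 41.1% (32.8% to 59.7%). Over these genes Spearman's rho between log2 fold change and GC content was -0.57, beside -0.58 over 15107 genes, and both are given as descriptions because the points come from the same 6 libraries. In the 15 genes under 40% GC the median log2 fold change was 0.48, where it was 0.24 for all genes in that range, and 8 were called higher, beside 21.1% of all genes in that range. The 16 genes from 40% to 45% GC had a median of 0.31 (0.15 for all genes), with 12 called higher, beside 17.5%. From 45% to 50% the 5 genes had a median of 0.23 (0.04 for all genes) with 3 called higher, beside 8.85%, and at 50% or more the 5 genes had a median of 0.05 (-0.14 for all genes) with 0 called higher, beside 2.47%. Thus in each range the list's median was above that of all genes. After correction the medians of the 4 ranges were 0.26, 0.19, 0.19 and 0.21, with 5, 8, 3 and 3 genes called higher, beside 5.47%, 8.80%, 10.5% and 13.0% of all genes, and rho was -0.11. The trend on GC content and length made up a positive part of the difference in 34 genes and a negative part in 7, with a median of 0.14 on the log2 scale.

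**Figure D4:**
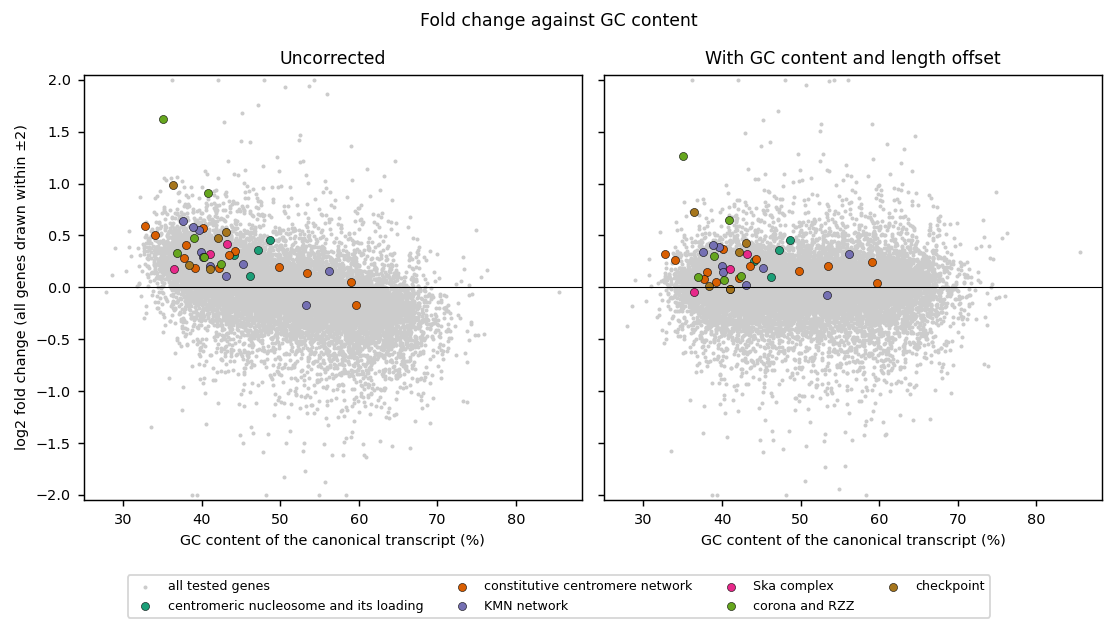
The log2 fold change of SiHa PR P4HA3 over SiHa PR is plotted against the GC content of the canonical transcript (percent), uncorrected on the left and corrected on the right, for all tested genes (grey, drawn within ±2) and for the 41 kinetochore and checkpoint genes (coloured by role). The grey cloud slopes down on the left and is level on the right, and most coloured points lie above its middle in both panels.

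The GC trend also differed between libraries of 1 group. Spearman's rho between GC content and a gene's deviation from its group mean was 0.22, 0.38 and -0.52 in SiHa PR replicates 1, 2 and 3 and 0.45, -0.48 and 0.08 in SiHa PR P4HA3 replicates 1, 2 and 3. The median of the 41 genes against the control mean was 0.21, 0.33 and 0.27 in the overexpressing libraries and 0.01, -0.03 and 0.04 in the controls, in log2 units. The corrected medians were 0.19, 0.23 and 0.23, and between -0.01 and 0.01 in the controls. SiHa PR P4HA3 replicate 2 was the highest of the 6 libraries in 24 genes before correction and in 18 after it. The share of all genes in which it was highest is not given here, so these counts cannot be read as particular to the list.

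The number of calls depended on which libraries were used, among these genes and among all genes. Without SiHa PR replicate 1, 9 of the 41 genes were called higher, beside 1.49% of all genes, and without SiHa PR replicate 2 there were 4, beside 1.06%. Without SiHa PR replicate 3 there were 20 (9.08%). Leaving out SiHa PR P4HA3 replicate 1 gave 29 (18.3%), with CENPM called lower, leaving out replicate 2 gave 18 (5.75%), and leaving out replicate 3 gave 8 (1.79%). The median log2 fold change stayed between 0.26 and 0.35 in these 6 fits, and the sign of each of the 41 genes did not change in them. With the correction, the calls in the same order were 13 (5.5%), 10 (5.33%), 13 (6.76%), 23 (12.7%), 18 (9.33%) and 12 (6.08%), and the median lay between 0.19 and 0.23.

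HJURP, BUB1 and BUB1B were called higher in all 12 of these fits. CENPN was the other gene called in all 6 uncorrected fits, and it was called in 3 of the 6 corrected ones. CENPA, CENPI, NDC80 and SKA1 were each called in 5 of 6 uncorrected and 6 of 6 corrected fits, and CENPL in 4 and 6. CENPE was called in 3 and 4, CENPF in 2 and 2, and NUF2 in 2 and 1. MIS18A and CENPK were called in 3 and 3, ZWINT in 3 and 4, and SPDL1 in 3 and 1. The 7 genes called only without correction kept their call in 1 to 3 of the 6 uncorrected fits. CENPO and CENPT were called in 0 uncorrected and 6 corrected fits, and PMF1 in 0 and 3. NUF2, whose log2 fold change was 0.34 (edgeR adjusted p = 0.0556) without SiHa PR P4HA3 replicate 2, lost its call there. How many of all genes tested kept a call through these fits is not given here. These counts therefore cannot be read as particular to the list.

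**Figure D5:**
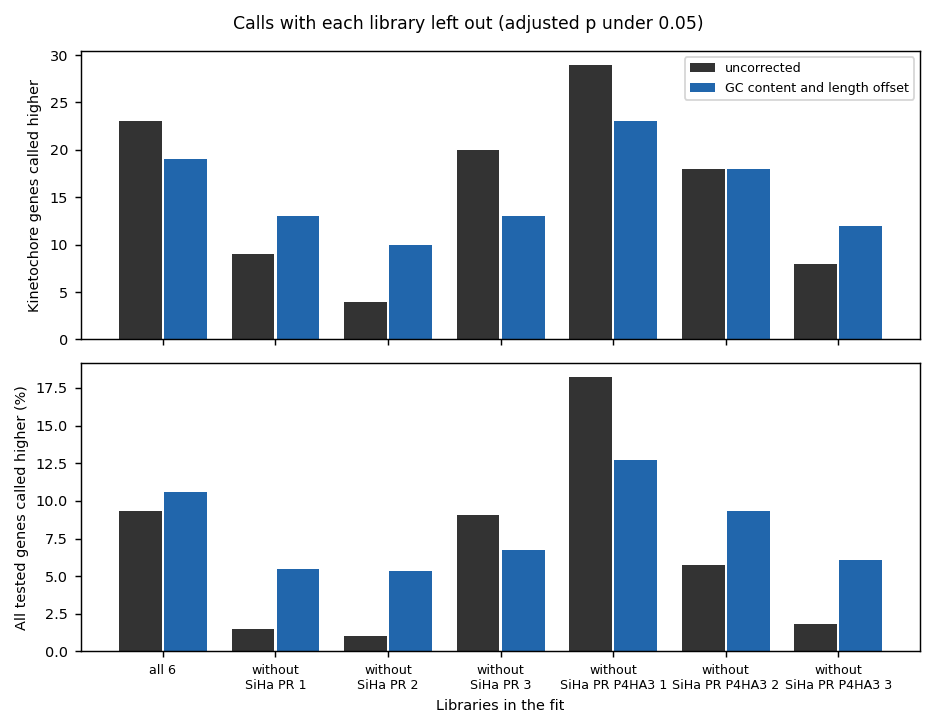
Bars give the number of the 41 kinetochore and checkpoint genes called higher (top) and the percentage of all tested genes called higher (bottom), with all 6 libraries and with each library left out, black without and blue with the GC content and length offset. Black bars run from 4 to 29 genes and blue bars from 10 to 23, and both panels are lowest without SiHa PR replicate 2.

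Promoters were read from RefSeq (GRCh38.p14) as the 250 bases before and 50 bases after the start of each gene, and 34 of the 42 genes matched an entry. The motifs searched on both strands were the CHR, spelled TTTGAA or TTTAAA, and the CCAAT box, spelled CCAAT. The E2F site was searched as TTTCCCGC, TTTGCCGC, TTTCGCGC or TTTGGCGC. A CHR was found in 17 of 34 promoters (50%), beside 15.3% of the promoters of 10983 tested genes and 24.3% of all 27305 promoters of this length. CCAAT was found in 21 (61.8%, beside 36.5% and 35.7%), an E2F site in 4 (11.8%, beside 5.44% and 3.33%), and both CHR and CCAAT in 10 (29.4%, beside 6.33% and 9.49%). Of the genes called in both fits, 14 had an entry, 11 of them with a CHR (78.6%) and 8 with CCAAT (57.1%). Whether the motifs go with being called was not tested. Of the 39 other kinetochore, checkpoint and anaphase genes described below, 35 had an entry. Among these a CHR was found in 31.4%, CCAAT in 45.7%, an E2F site in 8.57% and both CHR and CCAAT in 20%. A match is a run of letters, not a tested site.

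The promoters of the 3 genes called in every fit, of CENPA as the centromeric nucleosome itself and of CENPE as the gene with the largest fold change are printed 5′ to 3′ on the strand of the gene, with CHR and CCAAT letters (or ATTGG, the reverse complement of CCAAT) in capitals. The HJURP promoter lies at chr2:233854486-233854785 on the minus strand, that of BUB1 at chr2:110678014-110678313 on the minus strand, that of BUB1B at chr15:40160819-40161118 on the plus strand, that of CENPA at chr2:26785806-26786105 on the plus strand and that of CENPE at chr4:103198294-103198593 on the minus strand.
HJURP: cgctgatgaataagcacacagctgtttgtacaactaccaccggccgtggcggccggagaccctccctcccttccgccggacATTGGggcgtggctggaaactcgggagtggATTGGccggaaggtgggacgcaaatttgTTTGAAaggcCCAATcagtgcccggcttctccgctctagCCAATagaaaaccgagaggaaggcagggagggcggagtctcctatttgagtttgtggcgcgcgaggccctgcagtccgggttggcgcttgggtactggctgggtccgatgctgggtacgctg
BUB1: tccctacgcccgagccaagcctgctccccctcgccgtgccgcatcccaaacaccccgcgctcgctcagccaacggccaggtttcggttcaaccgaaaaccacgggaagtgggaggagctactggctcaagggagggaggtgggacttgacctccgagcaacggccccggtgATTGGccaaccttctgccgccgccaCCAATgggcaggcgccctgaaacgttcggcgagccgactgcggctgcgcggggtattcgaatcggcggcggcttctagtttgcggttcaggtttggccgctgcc
BUB1B: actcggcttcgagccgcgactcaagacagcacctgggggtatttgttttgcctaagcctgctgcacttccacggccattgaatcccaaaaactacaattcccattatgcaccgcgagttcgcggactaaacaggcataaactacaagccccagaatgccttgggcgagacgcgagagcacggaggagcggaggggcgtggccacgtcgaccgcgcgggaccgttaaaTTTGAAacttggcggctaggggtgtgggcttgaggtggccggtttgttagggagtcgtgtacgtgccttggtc
CENPA: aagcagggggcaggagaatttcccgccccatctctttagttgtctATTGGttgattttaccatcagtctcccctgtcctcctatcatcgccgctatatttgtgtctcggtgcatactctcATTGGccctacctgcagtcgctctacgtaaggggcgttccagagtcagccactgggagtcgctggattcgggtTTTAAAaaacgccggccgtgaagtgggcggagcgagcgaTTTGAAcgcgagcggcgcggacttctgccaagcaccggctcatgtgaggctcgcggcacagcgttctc
CENPE: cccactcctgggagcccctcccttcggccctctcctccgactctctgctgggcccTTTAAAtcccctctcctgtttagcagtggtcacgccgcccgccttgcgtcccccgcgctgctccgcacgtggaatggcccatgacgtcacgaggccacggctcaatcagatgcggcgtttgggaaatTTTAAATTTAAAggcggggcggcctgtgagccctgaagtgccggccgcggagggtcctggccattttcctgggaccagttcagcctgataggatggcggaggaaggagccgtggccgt
Counted from the annotated start, CENPA holds a CHR at -57 and another at -18, BUB1B holds one at -23, and HJURP holds one at -111 among 4 CCAAT boxes. In CENPE the letters TTTAAA stand at -195, -68 and -62, the last pair adjoining. BUB1 holds 2 CCAAT boxes, at -79 and -54, and no CHR letters in this window.

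Another 39 kinetochore, checkpoint and anaphase genes outside the list were also mostly on the higher side, with a smaller median. All 39 were tested, 29 had a positive log2 fold change, and the median was 0.18. Of these genes 12 were called higher and 0 lower, where 9.36% and 11.4% of all genes tested were. At an unadjusted p under 0.05, 19 were higher and 3 lower, beside 19.3% and 19.4%. With the correction 13 were called higher and 0 lower (1 lower at an unadjusted p under 0.05), beside 10.6% and 7.94% of all genes. The corrected median was 0.13, and 9 genes were called in both fits, a count with no share of all genes beside it. The uncorrected counts moved with the libraries, to 4 higher without SiHa PR replicate 1 (1.49% of all genes). There were 3 higher without SiHa PR replicate 2 (1.06%) or SiHa PR P4HA3 replicate 3 (1.79%). Without SiHa PR P4HA3 replicate 1 there were 17 higher and 5 lower, where 18.3% and 17.6% of all genes were. From the chromosomal passenger complex, the carrier of the Aurora B kinase, the scaffold INCENP (0.29, edgeR adjusted p = 0.0168) and CDCA8 (borealin; 0.32, adjusted p = 0.00583) were called, while AURKB itself, named after its values were seen, reached 0.05 (adjusted p = 0.584) and was called only after correction (0.20, adjusted p = 0.0124).

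Of the genes that act with the checkpoint or at attachments, 5 were called in both fits. The largest of these changes was that of SPAG5 (astrin), at 141 ± 5.10 CPM (SD, n = 3) in SiHa PR and 187 ± 1.24 CPM in SiHa PR P4HA3, a log2 fold change of 0.41 (edgeR adjusted p = 0.00142). Its partner KNSTRN rose by 0.27, the microtubule polymerase CKAP5 by 0.38, TRIP13, the ATPase that takes MAD2 complexes apart, by 0.32, and the kinase PLK1 by 0.21 on the log2 scale (edgeR adjusted p between 0.00142 and 0.0339 for these 5 genes), with corrected values between 0.24 for CKAP5 and 0.42 for SPAG5. In the anaphase-promoting complex, the ubiquitin ligase that the checkpoint holds back, 4 of 17 genes were called without correction, of which CDC23 (0.24, edgeR adjusted p = 0.0231) and ANAPC15 (0.29, adjusted p = 0.0296) were also called with it. ANAPC10 (0.53, edgeR adjusted p = 0.114) and SGO2 (0.44, adjusted p = 0.233), which were among the largest log2 fold changes of these 39 genes, missed the threshold.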

How the data were processed

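The authors made poly-A, strand-specific (dUTP) libraries from 3 SiHa PR and 3 SiHa PR P4HA3 samples, sequenced them in pairs, aligned the reads to GRCh38 and counted them per gene with HTSeq. The study names STAR as the aligner and the submitters' processing notes name HISAT2. The deposited values are raw read counts for 60664 Ensembl genes, with no normalization. Whether the counting used strand is not given in the sources used here. Depth limits low genes, since 1 CPM is little more than 20 counts.

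The 42 genes, their role groups and the comparison lists were chosen with earlier results of these data known. Symbols, GC content, transcript length and exon overlaps came from GENCODE v44 (60463 identifiers matched). In R 4.3.3, edgeR 4.0.16 was used for filterByExpr (minimum count 10), TMM, the quasi-likelihood test (two-sided) and Benjamini-Hochberg adjustment over 15130 genes, with calls at an adjusted p under 0.05. Standard errors are the absolute log2 fold change of the fit, which a small prior count shrinks slightly, divided by the root of F. To correct for GC content and log2 length, smooth terms (mgcv 1.9.3) were fitted to the difference of each library from the average log2 CPM (prior count 2), and the fitted values served as offsets. The code was tested on simulated data.

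Values in every library are given for genes called in either fit, for the largest and smallest log2 fold change of each role group and for genes whose sign differed between fits. Of the 39 comparison genes, those called in both fits and the 3 largest log2 fold changes are named, except for an item that is not reported here. Alternatives were RLE factors, library sizes alone, DESeq2 1.42.0, limma-voom (limma 3.58.1), other filters, a replicate block, GC content or length alone, a stricter threshold and each library left out. The recentred offset, and all alternatives but the correction for the comparison genes, were added after seeing the data. Deviations of same-numbered libraries did not all correlate above 0.1, so the numbers were not treated as pairs.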

Additional observations from a re-analysis of the deposited data

How the results depend on the processing

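The 23 higher and 0 lower kinetochore and checkpoint genes stayed at 23 and 0 with RLE factors, beside 9.33% and 11.4% of all genes. At least 10 counts in every library also gave 23 and 0 (9.75% and 12.2%), and library sizes alone 20 and 0 (8.86% and 11.1%). DESeq2 gave 22 and 0 (11.8% and 12.2% of genes with an adjusted p), and limma-voom 21 and 0 (8.90% and 11.3%). Without a filter, where MAD1L1 was also tested, there were 27 and 0 (8.65% and 7.63%). A GC content offset alone gave 14 higher (8.50% of all genes), and a length offset alone 27 (13.5%). An adjusted p under 0.01 gave 8, and the share of all genes at that threshold is not given here. The median log2 fold change of 0.31 was 0.206 with the GC content and length offset, 0.218 with GC content alone and 0.189 with the recentred offset. The recentred offset called 16 genes higher, beside 8.92% of all genes, and put 48.6% of all calls on the higher side. Beyond the GC content and length trend that these offsets remove by construction, the cause was not tested.

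Same-numbered libraries of the groups had correlations of 0.25, -0.05 and 0.03 in their deviations from the group means. These values cannot show whether same-numbered libraries were prepared together. Within a group the deviations sum to 0, and they also follow GC content. With the replicate block 26 genes were called higher and 0 lower, beside 14.1% and 14.4% of all genes. In that fit 3 of the 39 comparison genes were called lower, as without a filter (3), where 7.63% of all genes were lower. SiHa PR replicates 2 and 3 correlated best with another number. The replicate block with the GC content and length offset gave 23 higher, beside 14.1% of all genes, and a median of 0.205.

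Leaving out 1 library moved the number of genes called higher between 4 and 29, the number called lower between 0 and 1, and the median between 0.187 and 0.346 over the fits without and with the offset. Genes called higher with the offset ranged from 10 to 23, beside 5.33% to 12.7% of all genes. The comparison genes ranged from 3 to 17 higher and from 0 to 5 lower. Over the fits without and with the offset, 1.06% to 18.3% of all genes were called higher and 2.41% to 17.6% lower.

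Signs changed only in fits with an offset. CENPM was at 0.044 with the GC content and length offset, 0.021 with GC content alone, 0.044 with the replicate block added and 0.027 recentred. NSL1 was at -0.017, -0.016 with the block and -0.034 recentred. SKA2 was at -0.042, -0.068 with GC content alone, -0.041 with the block and -0.059 recentred. BUB3 was at -0.015, -0.018 with the block and -0.033 recentred. DSN1 was at -0.00053 with GC content alone and MAD2L1 at -0.0095 recentred. With 1 library left out, the ranges over the fits without and with the offset were -0.101 to 0.202 for BUB3, -0.043 to 0.557 for CENPC, -0.304 to 0.107 for CENPM, -0.0090 to 0.361 for CENPU, -0.063 to 0.260 for CENPW, -0.0096 to 0.153 for DSN1, -0.077 to 0.436 for KNTC1, -0.113 to 0.245 for MAD2L1, -0.088 to 0.238 for NSL1, -0.092 to 0.194 for SKA2 and -0.262 to 0.0059 for SPC24, and in each gene the change of sign came with the offset.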

Other observations

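Across 15107 genes tested, Spearman's rho between transcript length and a gene's deviation from its group mean was -0.42, 0.39 and 0.04 in SiHa PR P4HA3 replicates 1, 2 and 3, a description of points from the same libraries. Among kinetochore and checkpoint genes, split by length after the values were seen, SiHa PR P4HA3 replicate 2 was the highest of the 6 in 10 of the 16 tested genes with a transcript over 3000 bases and in 14 of the 25 shorter ones. The median excess of its log2 CPM over the mean of the other overexpressing libraries was 0.0977 in the longer and 0.0563 in the shorter genes, and 0.0442 and -0.0146 with the GC content and length offset. The same counts and medians over all genes tested are not given here, so these values cannot be read as particular to the list.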
